A study of Mus musculus with 9 samples.

Results

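The solute carriers (Slc genes) were examined in MLO-Y4 cells, an osteocyte-like mouse cell line, by RNA sequencing. Members were selected on symbol and summed raw count: protein-coding genes named Slc, a family number, a and a member number, with at least 90 reads over the 9 libraries. Of 348 protein-coding genes with such a symbol, 178 lay under this sum, of which 83 had no read, and 11 were set aside by name as carriers of glucose, lactate, cystine and large neutral amino acids, among others. This left 159 members of the 56748 genes in the table. The sums of the members just inside were 110 for Slc22a23 and 119 for Slc22a18, and those just outside were 89 for Slc10a6 and 88 for Slc45a3. All 159 passed the filter on low counts that left 13812 genes for testing, and 155 of them had 30 or more reads in the control libraries alone.

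Each of 3 groups held 3 libraries. In all groups the MLO-Y4 cells, grown on collagen, shared a transwell with primary articular chondrocytes from C57BL/6J mice 5 to 6 days old. In the control group the chondrocytes were not stimulated. In the 24 h and 48 h groups the chondrocytes had first received interleukin-1β at 10 ng/mL for 6 h and were then co-cultured with the MLO-Y4 cells for 24 h or 48 h. The labels do not give the co-culture time of the control group, so stimulation and time cannot be told apart in a difference from control. The labels also name the line of the 48 h samples MLO-Y5, MLO-Y6 and MLO-Y7, while the protocols name MLO-Y4 throughout. They do not say that replicates came from separate cultures, and p-values then measure only the spread between these samples.

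Solute carriers are membrane proteins that move ions, nutrients, metals and metabolites across the plasma membrane and the membranes of organelles, by facilitated diffusion, cotransport or exchange, without splitting ATP themselves. They are grouped into families by sequence, and a family often shares a kind of substrate. Members of the Slc25 family sit mostly in the inner mitochondrial membrane. In bone cells, carriers of phosphate, bicarbonate, protons and metals serve mineral and pH handling. In these bulk samples fewer cells of a type and less RNA per cell cannot be told apart.

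Total counts ranged from 12250628 to 18515456 per library, and the members took 0.880% to 0.917% of them. Of 10 osteocyte genes, Sost, Mepe and Fgf23 had at most 3 reads in every library and Dmp1 at most 6, so the markers of the mature osteocyte were at or near 0, while Gja1, Pdpn, Phex and Col1a1 were read in every library. The summed level of these 10 genes was 2966 to 3128 CPM (the scaled read count relative to the library total) in control, 3027 to 3056 CPM at 24 h and 3828 to 3892 CPM at 48 h. The higher sum at 48 h was that of Gja1, which rose from 1498 to 2413 CPM, while Col1a1, Alpl and Bglap were called lower and Phex and Pdpn higher. Of 10 chondrocyte genes, Acan, Col9a1, Matn1 and Cnmd had no read, and the summed level, nearly all of it Sox9, was 111.5 to 123.2 CPM in control, 103.6 to 111.7 CPM at 24 h and 124.1 to 130.0 CPM at 48 h. The part of these genes in the results below was not tested.

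At 48 h the members moved in both directions and about as often as other genes. A gene was called where edgeR's quasi-likelihood test, adjusted over all genes tested, gave a p under 0.05. Against control, 41 members were called higher at 48 h (25.8%) and 32 lower (20.1%), beside 22.0% and 24.4% of all genes tested. At 24 h, 5 members were called higher and 5 lower, 3.14% in each direction, beside 3.25% and 2.9% of all genes. Between 48 h and 24 h, 42 members were called higher (26.4%) and 38 lower (23.9%), beside 23.7% and 25.4%. Some members reached the summed count of 90 only with the reads of the group in which they were called higher: Slc43a1 and Slc17a7 at 48 h against control, Slc15a3 at 24 h, and Slc43a1, Slc17a7 and Slc22a18 between the times. The numbers called higher without them were 39, 4 and 39. The median log2 fold change of the members was 0.02 at 48 h, 0.01 at 24 h and 0.03 between the times, and that of all genes was 0.00 in each comparison. The comparisons with control share the control libraries, and 48 h against 24 h shares libraries with each of them. In no comparison were 62 of the members called, among them Slc38a10 and Slc25a24.

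The counts of the substrate classes at 48 h are set beside the shares of all genes tested, 22.0% called higher and 24.4% lower. Most classes are small, so that a few genes move a share by much. Among mitochondrial carriers, 6 of 38 were called higher (15.8%) and 13 lower (34.2%) at 48 h. Among carriers of vitamins and heme, 1 of 8 was called higher (12.5%) and 5 lower (62.5%), with a median log2 fold change of -0.37. Among carriers of chloride, bicarbonate, phosphate and sulfate, 7 of 17 were called higher (41.2%) and 2 lower (11.8%), with a median of 0.18. Carriers of amino acids and peptides had 7 higher (29.2%) and 2 lower (8.33%) of 24. Those of metal ions had 8 higher (34.8%) and 4 lower (17.4%) of 23. The classes were assembled by hand, and these counts are a description without a test between classes. The mitochondrial class is the Slc25 family and includes Slc25a17, a carrier of peroxisomes. The amino acid class includes the noradrenaline carrier Slc6a2, called higher, and the creatine carrier Slc6a8, called lower.

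**Figure D1:**
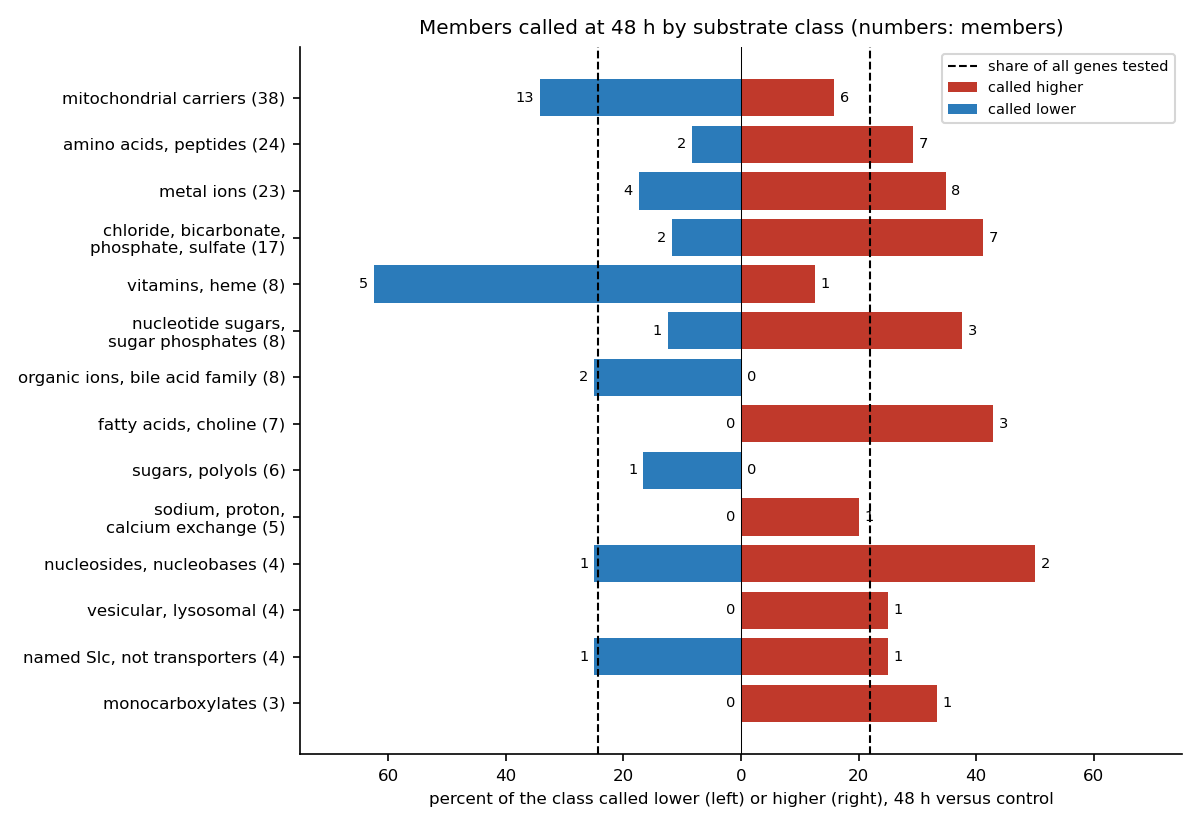
Percent of each substrate class called lower (left, blue) or higher (right, red) at 48 h versus control, with the number of members beside each bar, the class size in parentheses and dashed lines at the share of all genes tested (24.4% lower, 22.0% higher). The bar of vitamin and heme carriers reaches farthest to the left, with 5 of 8 members, and the organic ion and sugar classes have no member called higher.

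**Figure D2:**
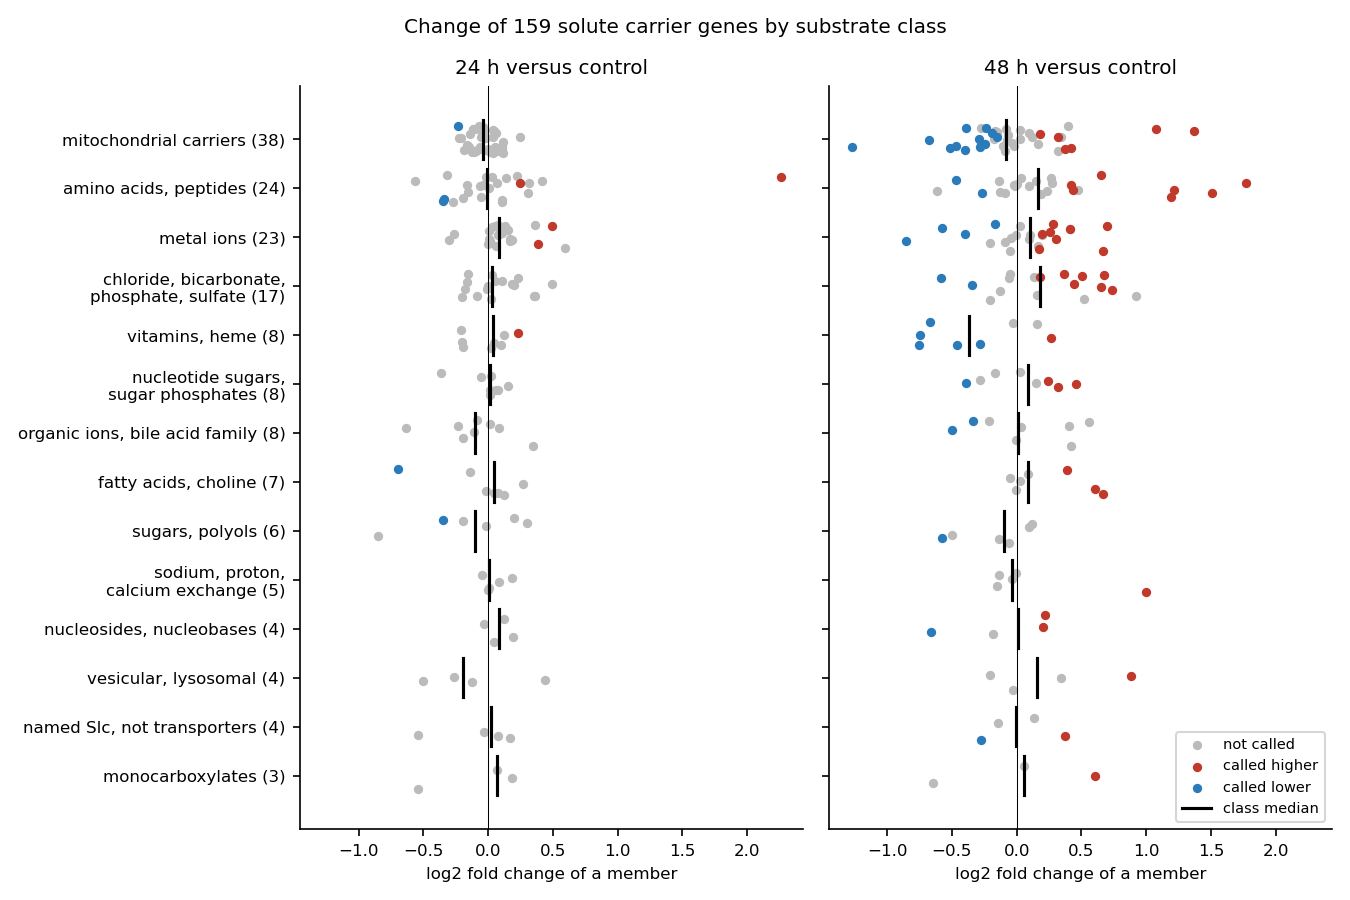
Log2 fold change of each member against control at 24 h (left) and 48 h (right), by substrate class with the class size in parentheses, where each point is a gene, colors mark the calls and black bars mark class medians. Points lie close to 0 at 24 h, with 10 members called, and spread to both sides at 48 h, with 73 called.

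The 4 mitochondrial carriers with the highest level per length in control, Slc25a5, Slc25a4, Slc25a39 and Slc25a3, were all called lower at 48 h. The member with the largest fall was Slc25a5 (ENSMUSG00000016319, chrX:36059304-36062460, GRCm39), an ADP/ATP carrier that exports the ATP made in mitochondria. Its level was 309.8, 319.5 and 288.6 CPM in the control libraries, 316.2, 314.9 and 328.4 CPM at 24 h and 126.4, 130.5 and 122.3 CPM at 48 h. The 48 h libraries lay far below all 6 others, while control and 24 h overlapped. Slc25a5 fell by 58.7% at 48 h (log2 fold change -1.28, SE 0.051, adjusted p = 1.4e-12), and its 24 h value was 0.06 (adjusted p = 0.547). In control it had the highest level per length of the 159 members, 186 CPM per kb of gene length, and at 48 h, with 76.8 CPM per kb, it ranked 4. Its paralog Slc25a4, the ADP/ATP carrier of heart and muscle, stood at 335.9, 333.3 and 312.6 CPM in control, 315.7, 331.7 and 310.9 CPM at 24 h and 274.3, 270.1 and 259.5 CPM at 48 h. Its fall was smaller, -0.29 on the log2 scale (SE 0.048, adjusted p = 7.2e-05). Per length, Slc25a4 thus stood at 0.749 ± 0.016 times the level of Slc25a5 in control (SD, n = 3), 0.699 ± 0.037 times at 24 h and 1.48 ± 0.035 times at 48 h. The order of the paralogs was reversed in each 48 h library. Because the treatment of reads with several matches was not given, the split of reads between these similar genes is uncertain.

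The starts of both genes are shown because the paralogs parted at 48 h. RefSeq promoter windows of 300 bases (250 before and 50 after the start, build GRCm38.p6) were at hand for 123 members. Capitals mark ACGTG on either strand, a form of the core of the hypoxia response element, and it lay in neither window. The other form of the core, GCGTG, was not searched for, and the Slc25a5 window holds it. The windows are chrX:36795347-36795646 (plus strand) and chr8:46211013-46211312 (minus strand).
Slc25a5: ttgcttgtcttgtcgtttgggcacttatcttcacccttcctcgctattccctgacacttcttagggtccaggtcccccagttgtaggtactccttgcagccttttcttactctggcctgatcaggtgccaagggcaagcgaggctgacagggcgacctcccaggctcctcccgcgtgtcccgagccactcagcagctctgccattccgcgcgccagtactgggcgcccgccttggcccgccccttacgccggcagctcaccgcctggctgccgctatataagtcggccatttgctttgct
Slc25a4: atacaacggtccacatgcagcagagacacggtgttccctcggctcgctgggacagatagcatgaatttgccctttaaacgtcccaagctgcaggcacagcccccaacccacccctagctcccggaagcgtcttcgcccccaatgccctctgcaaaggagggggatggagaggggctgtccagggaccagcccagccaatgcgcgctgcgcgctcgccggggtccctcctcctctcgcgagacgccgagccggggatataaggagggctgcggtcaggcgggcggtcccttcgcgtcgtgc

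Other abundant carriers of the inner membrane were called lower as well. Slc25a3, the mitochondrial phosphate carrier, fell from 531 ± 22.3 to 404 ± 18.6 CPM (SD, n = 3), -0.39 on the log2 scale (SE 0.047, adjusted p = 1.6e-06). Slc25a39, which carries glutathione into mitochondria, stood at 289.0, 319.9 and 275.7 CPM in control and at 215.2, 206.2 and 198.7 CPM at 48 h. Slc25a10, the dicarboxylate carrier, stood at 87.7, 99.0 and 84.6 CPM in control and at 56.1, 56.9 and 56.2 CPM at 48 h. In both genes every 48 h library lay below every control library, and the log2 fold change was -0.51 for Slc25a39 (SE 0.058, adjusted p = 9.4e-07) and -0.68 for Slc25a10 (SE 0.064, adjusted p = 9.3e-08). The log2 fold changes of the 13 members of the class called lower reached from -0.16 for Slc25a17, the peroxisomal carrier counted here, to -1.28 for Slc25a5. The summed level of the 38 genes was 3034 to 3173 CPM in control, 3001 to 3068 CPM at 24 h and 2648 to 2702 CPM at 48 h.

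The 6 mitochondrial carriers called higher were Slc25a1, Slc25a23, Slc25a27, Slc25a28, Slc25a36 and Slc25a51. Slc25a51, which brings NAD into mitochondria, rose from 115 ± 5.5 to 149 ± 6.3 CPM (SD, n = 3), 0.37 on the log2 scale (SE 0.062, adjusted p = 6.7e-05). Slc25a23, a calcium-regulated carrier of ATP-Mg and phosphate, stood at 3.39, 3.68 and 3.69 CPM in control and at 9.54, 9.89 and 8.38 CPM at 48 h. Its rise of 1.37 (SE 0.16, adjusted p = 1.8e-06) was the largest of the class but started from a low level. Slc25a37, which imports iron for heme and iron-sulfur clusters, was not called at 48 h, with 180 ± 11.9 CPM in control and 196 ± 5.08 CPM at 48 h (SD, n = 3). Slc25a24, a close relative of Slc25a23, was not called either, at 71.5 CPM per kb in control and 72.9 CPM per kb at 48 h.

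**Figure D3:**
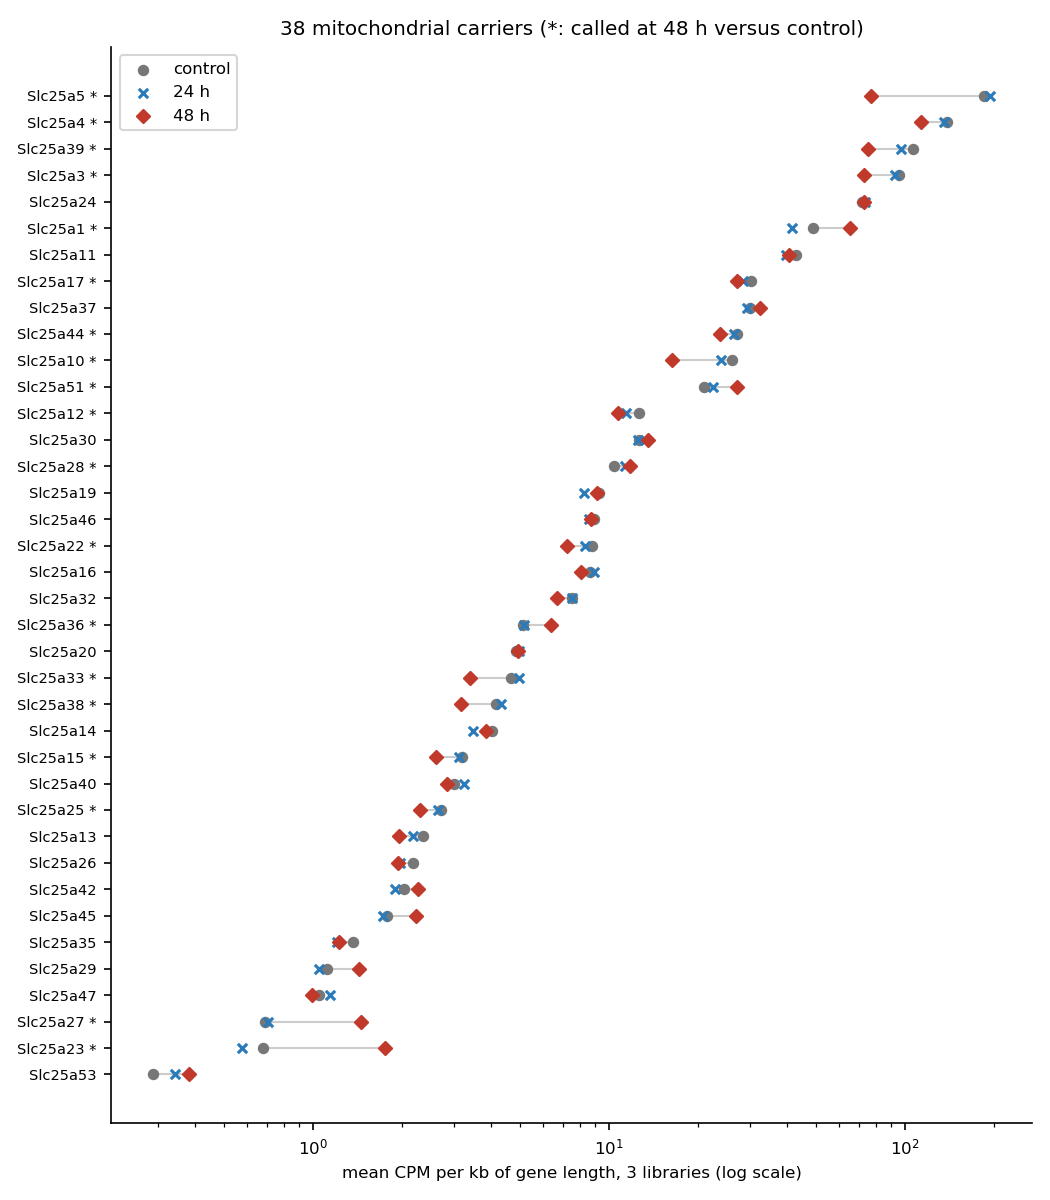
Mean level of the 38 members of the mitochondrial class (the Slc25 family, with the peroxisomal Slc25a17) in CPM per kb of gene length on a log axis. Circles mark control, crosses 24 h and diamonds 48 h, ordered by the control level, with a star on genes called at 48 h versus control. The diamond of Slc25a5 sits at 76.8 CPM per kb, left of its circle at 186, and below that of Slc25a4 at 113.9.

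The citrate carrier Slc25a1, which exports citrate to the cytosol for lipid synthesis, was the only member called lower at 24 h and higher at 48 h. Its level was 103.7, 117.6 and 95.5 CPM in control, 91.2, 89.3 and 89.5 CPM at 24 h and 140.1, 139.8 and 143.1 CPM at 48 h. No group overlapped another. The log2 fold change was -0.23 at 24 h (SE 0.065, adjusted p = 0.0415) and 0.42 at 48 h (SE 0.063, adjusted p = 2.7e-05), and 48 h exceeded 24 h by 0.65 (SE 0.064, adjusted p = 1.3e-07). The 24 h call was lost on leaving out any single library except control 3 (adjusted p of 0.0624 to 0.160), while the 48 h calls were kept throughout.

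Carriers of vitamins and heme gave the class with the largest share called lower. Slc48a1, a heme transporter of the endosome and lysosome, was the second most abundant member per length in control. It stood at 451.7, 501.3 and 445.5 CPM in control, 476.9, 490.1 and 479.1 CPM at 24 h and 288.5, 262.6 and 275.7 CPM at 48 h, and fell by 40.9% at 48 h (log2 fold change -0.76, SE 0.052, adjusted p = 1.3e-09). The 24 h libraries lay within the range of the control libraries. Slc19a1, the reduced folate carrier, stood at 66.4, 67.8 and 63.5 CPM in control, 70.5, 71.0 and 70.7 CPM at 24 h and 42.3, 42.5 and 39.8 CPM at 48 h (log2 fold change at 48 h -0.67, SE 0.058, adjusted p = 3.4e-08). Slc5a6, the sodium-dependent carrier of biotin and pantothenate, fell by 0.74 on the log2 scale at a level of 11.7 CPM in control, and Slc52a2, a riboflavin transporter, fell by 0.46 at 41.0 CPM. The fifth was Slc19a2, a thiamine transporter, at 22.9 ± 2.75 CPM in control and 18.9 ± 0.658 CPM at 48 h (SD, n = 3). Slc23a2, which takes up ascorbate, was the member called higher, with 101 ± 8.46 CPM in control, 119 ± 7.57 CPM at 24 h and 122 ± 6.19 CPM at 48 h (SD, n = 3, log2 fold change at 48 h 0.26, SE 0.067, adjusted p = 0.00353). The summed level of the 8 genes was 724.7 to 766.7 CPM in control, 769.8 to 788.0 CPM at 24 h and 515.7 to 537.0 CPM at 48 h. Slc19a1 overlaps Col18a1 on the other strand and Slc5a6 overlaps Atraid, with 23.4% and 221% of their own reads, and whether counting used the strand was not given.

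Phosphate carriers of the plasma membrane moved apart. Slc20a1 and Slc20a2 are sodium-phosphate cotransporters (PiT1 and PiT2) that supply phosphate to mineralizing cells. Slc20a1 was read at 76.7, 68.0 and 75.5 CPM in control, 74.9, 76.0 and 72.7 CPM at 24 h and 98.5, 106.3 and 95.1 CPM at 48 h. It rose by 0.44 on the log2 scale at 48 h (SE 0.061, adjusted p = 9.9e-06). Slc20a2 was read at 56.8, 66.8 and 64.9 CPM in control, 74.2, 67.3 and 74.8 CPM at 24 h and 42.7, 40.4 and 42.5 CPM at 48 h. It fell by 0.58 (SE 0.07, adjusted p = 2.1e-06), and the 48 h libraries of either gene overlapped none of the others. At 24 h the value of Slc20a2 was 0.20 and was not called (adjusted p = 0.098). It was called higher without control library 2 (0.25, adjusted p = 0.0419) or without the filter on low counts (0.22, adjusted p = 0.0446). Per length, the ratio of Slc20a1 to Slc20a2 was 1.31 ± 0.186 in control, 1.16 ± 0.0913 at 24 h and 2.66 ± 0.235 at 48 h (SD, n = 3). Slc20a2 overlaps Smim19 on the other strand, which had 24.6% of its reads.

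The RefSeq windows of Slc20a1 (chr2:129198523-129198822, plus strand, the first of 2 listed) and Slc25a1 (chr16:17928170-17928469, minus strand) are shown as those of members called higher at 48 h that hold ACGTG at 2 places each. CACGTG reads the same on both strands, and a CLEAR element (CACGTGAC) contains ACGTG.
Slc20a1: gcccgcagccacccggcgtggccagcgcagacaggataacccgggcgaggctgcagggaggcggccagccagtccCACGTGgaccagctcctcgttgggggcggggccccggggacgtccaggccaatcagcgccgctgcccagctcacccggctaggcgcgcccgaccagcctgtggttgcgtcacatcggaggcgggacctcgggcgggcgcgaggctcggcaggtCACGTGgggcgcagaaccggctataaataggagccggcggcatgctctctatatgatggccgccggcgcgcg
Slc25a1: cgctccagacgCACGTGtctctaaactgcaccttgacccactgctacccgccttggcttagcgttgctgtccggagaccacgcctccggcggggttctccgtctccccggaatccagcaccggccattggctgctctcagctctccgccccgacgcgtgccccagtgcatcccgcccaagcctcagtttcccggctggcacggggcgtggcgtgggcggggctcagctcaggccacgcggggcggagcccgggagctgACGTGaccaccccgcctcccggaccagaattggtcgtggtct

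ACGTG lay in 14 of 32 windows of members called higher at 48 h (43.8%), in 4 of 23 called lower (17.4%) and in 16 of 68 not called (23.5%), beside 19.7% of all 27025 RefSeq windows of the same length. The members' windows held more CpG than most, with a median of 24 in those called higher, 19 in those called lower and 7 over all windows, and the motif itself holds a CpG. Metal response elements (TGCACNC or TGCGCNC, either strand) lay in 40.6% of the windows of members called higher, 43.5% of those called lower and 25.6% of all windows. The CLEAR element lay in 9.38%, 4.35% and 2.33%, and a TATA box (TATAAA) in 9.38%, 0.0% and 14.2%. An ATF4 element (TGATGNAA) and an NF-kB site lay in 0 windows of called members, beside 4.06% and 0.385% of all windows. The GCGTG form of the hypoxia core was not counted. These matches describe letters in a short window and were not tested.

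Bicarbonate and chloride carriers were mostly higher among those called. The bicarbonate carriers Slc4a3 and Slc4a4 rose by 0.67 (SE 0.11, adjusted p = 7.3e-05) and 0.65 (SE 0.12, adjusted p = 0.000174) on the log2 scale at 48 h. Slc4a3, an anion exchanger, went from 18.4 ± 2.42 to 29.2 ± 3.68 CPM and Slc4a4, a sodium-bicarbonate cotransporter, from 13.4 ± 2.91 to 21.1 ± 0.527 CPM (SD, n = 3). Slc4a2, the chloride-bicarbonate exchanger with the highest level per length of the class, rose by 0.18 (SE 0.052, adjusted p = 0.00741), from 157.8, 176.5 and 170.8 CPM to 196.0, 188.2 and 188.7 CPM. It overlaps Fastk on the other strand, with 38.4% of its reads. Slc26a11, a sulfate and anion carrier, rose by 0.50 (SE 0.11, adjusted p = 0.00103). The sodium-potassium-chloride cotransporter Slc12a2 was called lower, at -0.34 (SE 0.097, adjusted p = 0.00737), with 49.97, 36.63 and 51.01 CPM in control and 36.4, 35.2 and 37.3 CPM at 48 h. The second control library overlapped the 48 h libraries, and without control library 1 the value was -0.26 and the call was lost (adjusted p = 0.067).

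Metal carriers split by gene within families. Slc11a2 (DMT1) takes up ferrous iron in most cells, whereas Slc11a1 (Nramp1) removes metals from phagosomes. Slc11a2 was read at 95.7, 94.9 and 97.4 CPM in control, 128.4, 118.3 and 130.1 CPM at 24 h and 126.9, 131.7 and 124.6 CPM at 48 h. It was called higher at both times, by 0.39 at 24 h (SE 0.055, adjusted p = 0.000124) and 0.41 at 48 h (SE 0.054, adjusted p = 5.4e-06), and the times overlapped. Slc11a1 was read at 15, 17.1 and 16.3 CPM in control, 19.4, 17.4 and 18.2 CPM at 24 h and 9.94, 7.97 and 8.75 CPM at 48 h, and fell by 0.86 (SE 0.11, adjusted p = 3.1e-06). Every 48 h library was below every other library. The ratio of Slc11a2 to Slc11a1 per length was 3.48 ± 0.241 in control, 4.0 ± 0.153 at 24 h and 8.46 ± 1.10 at 48 h (SD, n = 3).

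Of the 10 members of the Slc39 (ZIP) family, most of them zinc importers, 3 were called higher and 2 lower at 48 h. The shares of all genes tested were 22.0% higher and 24.4% lower. Slc39a1 rose at 48 h from 191 ± 1.11 to 235 ± 6.03 CPM (SD, n = 3, log2 fold change 0.30, SE 0.047, adjusted p = 3.8e-05). Slc39a13 rose by 0.26 (SE 0.063, adjusted p = 0.00229), and it overlaps Psmc3 on the other strand, which had 209% of its reads and fell by 0.34. Slc39a8 rose by 0.70 (SE 0.23, adjusted p = 0.0188) at a level of 2.23 CPM in control, and its call was lost without control library 3 (0.56, adjusted p = 0.0698) or 48 h library 2 (0.53, adjusted p = 0.0981). Slc39a10 and Slc39a11 fell by 0.40 (SE 0.076, adjusted p = 0.00028) and 0.58 (SE 0.067, adjusted p = 1.2e-06). Slc39a11 shares 911 bases with Cog1 on the other strand, which had 140% of its reads. The magnesium carrier Slc41a1 was read at 34.5, 38.9 and 43.2 CPM in control, 44.4, 41.4 and 44.7 CPM at 24 h and 64.3, 56.1 and 63.7 CPM at 48 h. Its rise at 48 h was 0.66 on the log2 scale (SE 0.08, adjusted p = 1.8e-06), the 48 h libraries lay over all others, and its relative Slc41a2 rose by 0.28 (SE 0.053, adjusted p = 0.000259). The zinc exporter Slc30a1 was called higher at 24 h, with 7.28, 8.26 and 7.82 CPM in control, 11.2, 11.3 and 10.2 CPM at 24 h and 6.57, 7.13 and 6.46 CPM at 48 h. Its log2 fold change was 0.49 at 24 h (SE 0.12, adjusted p = 0.0161) and -0.21 at 48 h, which was not called (adjusted p = 0.178). The 24 h call was lost without control library 1 (0.45, adjusted p = 0.0787), 24 h library 1 (0.48, adjusted p = 0.0731) or 24 h library 2 (0.47, adjusted p = 0.059).

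In the class of amino acid and peptide carriers, Slc7a2 showed the largest rise at a level over 5 CPM. It encodes CAT2, a carrier of arginine, lysine and ornithine, and was read at 28.1, 24.7 and 31.7 CPM in control, 38.3, 30.7 and 29.5 CPM at 24 h and 65.1, 64.9 and 66.6 CPM at 48 h. The 48 h level was 2.33 times that of control (log2 fold change 1.22, SE 0.092, adjusted p = 5.1e-09), and the 24 h value of 0.22 was not called (adjusted p = 0.23). Control and 24 h overlapped, and without control library 3 the 24 h value was 0.32 and was called (adjusted p = 0.0452). Slc38a2 (SNAT2), a sodium-coupled carrier of small neutral amino acids, rose by 0.44 at 48 h (SE 0.049, adjusted p = 8.2e-07). Its level was 414.0, 362.8 and 412.4 CPM in control, 440.4, 430.8 and 437.7 CPM at 24 h and 536.0, 532.8 and 541.9 CPM at 48 h, so that the groups did not overlap. Slc38a6, of the same family, rose by 0.65 (SE 0.077, adjusted p = 1.5e-06) from 19.3 ± 0.858 to 30.3 ± 1.11 CPM (SD, n = 3). Slc6a2, the noradrenaline transporter, rose by 1.19 (SE 0.13, adjusted p = 4.7e-07) from 5.69 ± 0.56 to 13.0 ± 0.81 CPM (SD, n = 3). Slc38a10 was not called, with 45.7 CPM per kb in control, the highest of the class there, and 45.3 CPM per kb at 48 h, where Slc38a2 stood at 60.8 CPM per kb.

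The amino acid class had 2 members called lower, Slc6a8 and Slc6a6, and the sugar and polyol class 1, Slc5a3. Slc6a8, the creatine transporter, was read at 162.0, 173.3 and 150.5 CPM in control, 125.7, 129.1 and 126.6 CPM at 24 h and 119.9, 114.5 and 116.1 CPM at 48 h. No group overlapped another, and the log2 fold change was -0.35 at 24 h (SE 0.056, adjusted p = 0.00048) and -0.47 at 48 h (SE 0.056, adjusted p = 1.6e-06). Slc6a6, the taurine transporter, fell at 48 h from 219 ± 14.3 to 182 ± 4.12 CPM (SD, n = 3, log2 fold change -0.27, SE 0.055, adjusted p = 0.00061). Slc5a3, the sodium-myo-inositol cotransporter, was read at 96.9, 77.4 and 96.1 CPM in control, 70.9, 73.2 and 68.9 CPM at 24 h and 56.8, 57.8 and 67.0 CPM at 48 h. It was called lower at 24 h (-0.35, SE 0.081, adjusted p = 0.0127) and at 48 h (-0.58, SE 0.081, adjusted p = 1.2e-05). The 24 h call was lost without control library 1 (-0.29, adjusted p = 0.095), 24 h library 1 (-0.34, adjusted p = 0.0504) or 24 h library 3 (-0.32, adjusted p = 0.0787). Slc5a3 lies on the same strand as Mrps6, with which it shares 29152 bases, and Mrps6, at 37.2% of its reads, fell by 0.77 at 48 h. The other 5 sugar and polyol carriers were not called at 48 h, among them Slc2a8 and Slc50a1.

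**Figure D4:**
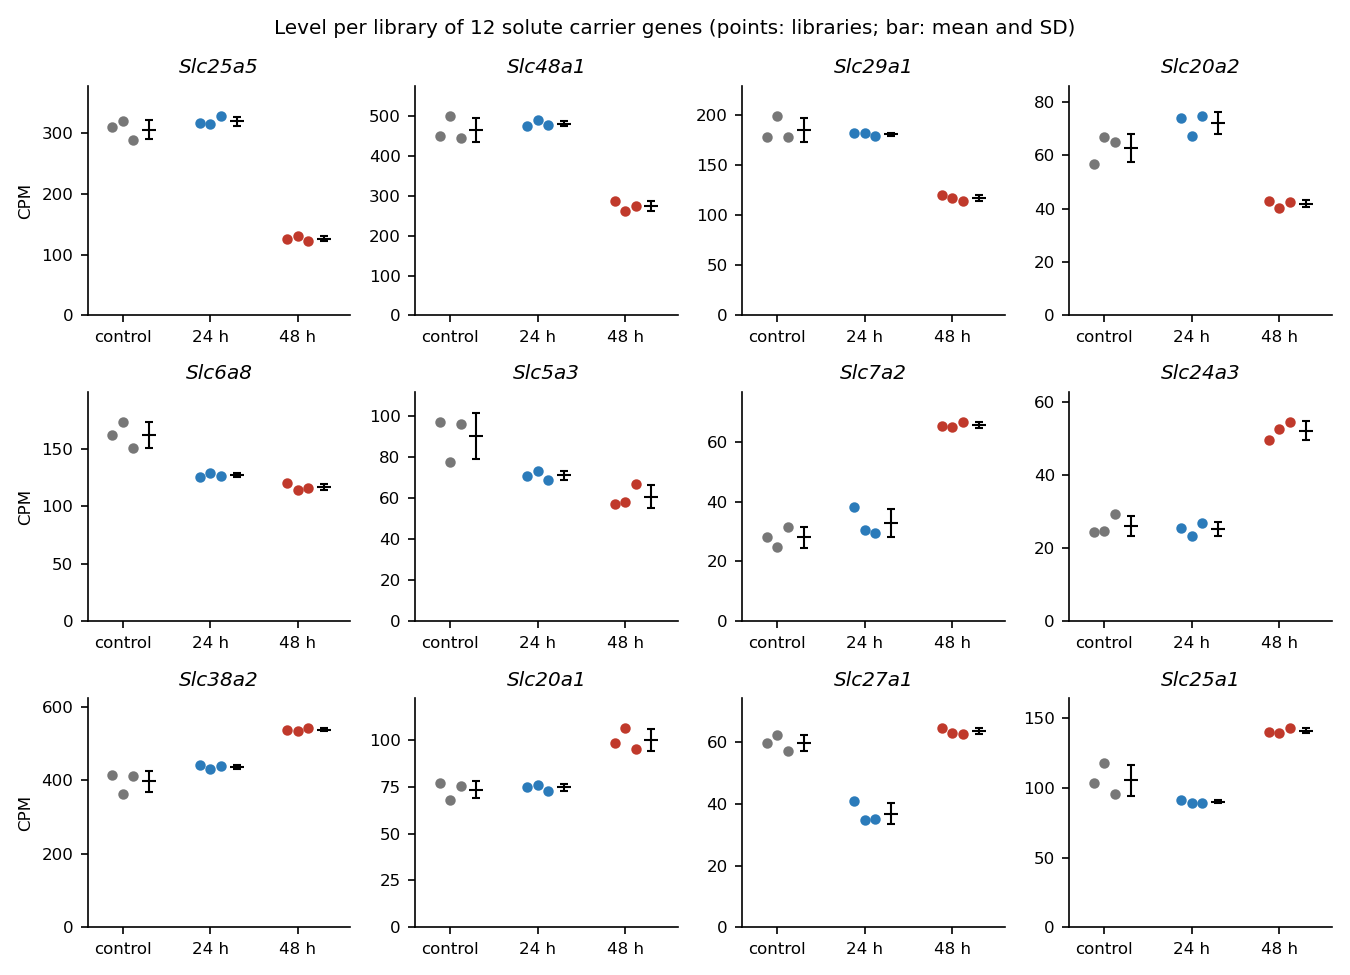
CPM of 12 members in each library, with 3 points per group and a bar for the mean and SD (n = 3), each panel starting at 0. The 48 h points of Slc25a5, at 122.3 to 130.5 CPM, lie far below the other groups, those of Slc7a2 and Slc24a3 lie above them, and Slc27a1 is low at 24 h alone.

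Of the 10 members called at 24 h, Slc27a1 fell and was back near control at 48 h. Slc27a1 (FATP1) takes up long-chain fatty acids, and it was read at 59.8, 62.1 and 57.2 CPM in control, 40.8, 34.7 and 35.1 CPM at 24 h and 64.6, 63.0 and 62.7 CPM at 48 h. Every 24 h library lay below all others. It fell by 38.2% at 24 h (log2 fold change -0.70, SE 0.07, adjusted p = 2.5e-06), and the 48 h value against control was 0.09 (adjusted p = 0.291). Slc15a3, a lysosomal peptide and histidine carrier, rose at 24 h by 2.26 (SE 0.42, adjusted p = 0.00193) from 9, 2 and 6 reads in the control libraries to 35, 21 and 32 reads, with 22, 25 and 15 reads at 48 h, so that counting error is large. Outside the 24 h group it had 79 reads, under the sum required of a member. It overlaps Tmem132a, which had 1167% of its reads. Slc6a17, a vesicular amino acid transporter, was called higher and Slc38a7, a lysosomal glutamine and asparagine carrier, was called lower. Their log2 fold changes were 0.25 (SE 0.058, adjusted p = 0.0129) and -0.34 (SE 0.098, adjusted p = 0.0454) at 24 h, and neither was called at 48 h, with -0.09 (adjusted p = 0.221) and 0.15 (adjusted p = 0.216).

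Several of the 24 h calls were lost on leaving out a single library, for some also a library of the 48 h group. On leaving out a 48 h library the value hardly moved, as for Slc38a7 at -0.34 with and without 48 h library 3. The call of Slc6a17 was lost without control library 1, 24 h library 1 or 24 h library 3 (0.23 to 0.25, adjusted p of 0.0511 to 0.0787). That of Slc38a7 was lost without control library 1 or 2, any 24 h library, or 48 h library 2 or 3 (-0.39 to -0.27, adjusted p of 0.0561 to 0.199). That of Slc23a2 (0.23, adjusted p = 0.0485) was lost without control library 1 or 2, 24 h library 1 or 3, or 48 h library 1 or 2 (0.17 to 0.24, adjusted p of 0.0649 to 0.205). In a fit of the control and 24 h libraries alone, Slc38a7, Slc23a2 and Slc25a1 were not called (adjusted p = 0.0738, 0.0936 and 0.106). Slc38a7 was not called by DESeq2 either (adjusted p = 0.0769), nor was Slc23a2 with scaling by library size alone (adjusted p = 0.0674) or with a minimum mean of 1 CPM (adjusted p = 0.0512). Slc11a2, Slc27a1, Slc6a8 and Slc15a3 kept their 24 h call in all 9 fits without a library. Without control library 1 the count was 2 members higher and 2 lower, without control library 3 it was 9 and 6, without 24 h library 1 it was 2 and 2, and without 24 h library 3 it was 3 and 2. The number called lower was 3 without 24 h library 2, 48 h library 2 or 48 h library 3.

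Of the 4 carriers of nucleosides and nucleobases, 2 were called higher and 1 lower at 48 h. Slc29a1 (ENT1), which equilibrates adenosine and other nucleosides across the plasma membrane, was read at 178.7, 199.3 and 178.2 CPM in control, 182.0, 182.2 and 179.5 CPM at 24 h and 120.1, 117.8 and 114.1 CPM at 48 h. Control and 24 h overlapped, and the fall at 48 h was 36.7% (log2 fold change -0.66, SE 0.054, adjusted p = 1.5e-08). The members called higher changed less, Slc43a3, a purine nucleobase carrier, by 0.20 (SE 0.058, adjusted p = 0.00768) and Slc29a3, a lysosomal nucleoside carrier, by 0.22 (SE 0.076, adjusted p = 0.0245). The call of Slc29a3 was lost without 48 h library 3 (0.19, adjusted p = 0.0888), by DESeq2 (adjusted p = 0.0561) and without the filter on low counts (adjusted p = 0.0666).

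Calcium and lipid carriers held a few larger changes. Slc24a3, a potassium-dependent sodium-calcium exchanger, was read at 24.5, 24.7 and 29.3 CPM in control, 25.6, 23.3 and 27.0 CPM at 24 h and 49.6, 52.7 and 54.7 CPM at 48 h. Its level at 48 h was 2.00 times that of control (log2 fold change 1.00, SE 0.081, adjusted p = 1.2e-08), with no overlap. Slc44a2, a choline transporter-like protein, rose by 0.61 (SE 0.086, adjusted p = 1.3e-05), and the fatty acid carrier family member Slc27a3 by 0.39 (SE 0.1, adjusted p = 0.0038). Slc44a1, the choline carrier with the highest level per length of its class, was not called, at 129 ± 7.69 and 132 ± 2.35 CPM (SD, n = 3).

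Of the 8 carriers of nucleotide sugars and sugar phosphates, 3 were called higher (37.5%) and 1 lower (12.5%) at 48 h. Of the 4 genes with an Slc symbol that encode no transporter, 1 was called higher (25.0%) and 1 lower (25.0%). The shares of all genes tested were 22.0% higher and 24.4% lower. Slc35a4, of the nucleotide sugar transporter family, fell from 161 ± 12.8 to 123 ± 2.17 CPM (SD, n = 3, log2 fold change -0.39, SE 0.059, adjusted p = 2.4e-05), whereas its relative Slc35a5 rose by 0.32 (SE 0.079, adjusted p = 0.00269). Slc37a2 and Slc37a3, of the sugar phosphate family, rose by 0.46 (SE 0.13, adjusted p = 0.00639) and 0.25 (SE 0.056, adjusted p = 0.00148). Slc37a2 overlaps a gene on the other strand that had 171% of its reads. Slc16a4, of the monocarboxylate family, rose by 0.60 (SE 0.092, adjusted p = 3.2e-05) from 13.1 ± 1.14 to 19.9 ± 0.747 CPM (SD, n = 3). Slc10a3, of the bile acid family, fell by 0.50 (SE 0.099, adjusted p = 0.000405). It shares 4002 bases on the same strand with Ubl4a, which had 197% of its reads and fell by 0.29. The lysosomal sialic acid exporter Slc17a5 was not called, at 28.9 ± 2.75 CPM in control and 28.4 ± 1.63 CPM at 48 h (SD, n = 3). Of the genes that encode no transporter, the scaffold protein Slc9a3r1 (NHERF1) rose by 0.37 (SE 0.059, adjusted p = 4.7e-05) and Slc7a6os fell by 0.27 (SE 0.087, adjusted p = 0.0152). The call of Slc7a6os was lost without control library 1 or 2 or 48 h library 2 or 3 (-0.26 to -0.19, adjusted p of at most 0.0942).

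Calls in both directions were seen in other families too. Of 40 families, 30 had 2 or more members, and in 9 of these a member was called higher and another lower at 48 h. These were Slc6, Slc11, Slc12, Slc20, Slc25, Slc29, Slc30, Slc35 and Slc39. Of all genes tested, 22.0% were called higher and 24.4% lower at 48 h. At such shares a family with many members, such as Slc25 with 38, can hold both calls. Whether 9 families exceeded the number given by these shares was not tested. For the plot of ratios, pairs were picked after their values were seen. The ratio of Slc23a2 to Slc19a1, both vitamin carriers, was 0.900 ± 0.104 in control, 0.983 ± 0.0651 at 24 h and 1.71 ± 0.151 at 48 h per length, and that of Slc25a23 to Slc25a25, both calcium-regulated carriers, was 0.249 ± 0.00499, 0.221 ± 0.0624 and 0.761 ± 0.0699 (SD, n = 3).

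**Figure D5:**
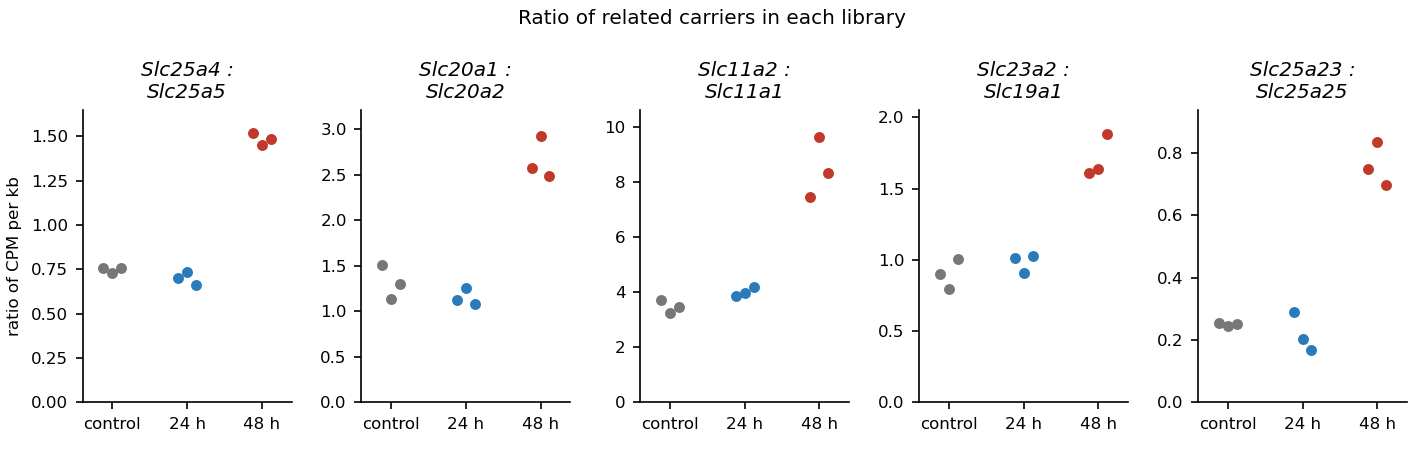
Ratio of the levels of 5 pairs of carriers of the same family or substrate class in CPM per kb of gene length, with 1 point per library and 3 libraries per group, each axis starting at 0. In every pair the 48 h libraries lie above the control and 24 h libraries, as for Slc25a4 over Slc25a5 with 1.48 at 48 h against 0.749 in control. The pairs were picked after their values were seen, each with a gene called lower at 48 h as denominator, so this order follows from the choice.

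Other transport genes, listed by hand, are given beside the shares of all genes called in the same comparisons. Of 55 tested genes listed as carriers under other names, 11 (20%) were higher and 13 (23.6%) lower at 48 h, 1 (1.82%) and 3 (5.45%) at 24 h, and 16 (29.1%) and 11 (20%) between the times. Of 11 tested partners and regulators of carriers, 3 (27.3%) were higher and 3 (27.3%) lower at 48 h, 1 (9.09%) and 2 (18.2%) at 24 h, and 4 (36.4%) and 3 (27.3%) between the times. Of 30 tested genes of the ABC family, most of them transporters that use ATP directly, 11 (36.7%) were higher and 7 (23.3%) lower at 48 h. The numbers were 3 (10.0%) and 1 (3.33%) at 24 h, and 12 (40.0%) and 8 (26.7%) between the times. The ABC list includes Abce1, Abcf1, Abcf2 and Abcf3, which encode no transporter. Of these, Abce1, Abcf1 and Abcf2 are among those called lower at 48 h and between the times. Of 25 tested ion-pumping ATPases, 2 (8.0%) were higher and 8 (32.0%) lower at 48 h, 2 (8.0%) and 7 (28%) at 24 h, and 10 (40.0%) and 4 (16%) between the times. The shares of all genes were 22.0% and 24.4% at 48 h, 3.25% and 2.9% at 24 h, and 23.7% and 25.4% between the times, and the lists were not tested against them. The median log2 fold changes of these lists at 48 h were 0.03, -0.06, 0.11 and 0.03. In all, 68 members overlapped another gene with reads, and in 25 of them the other gene had at least 20% of the member's reads, so that their counts are less certain.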

How the data were processed

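RNA of MLO-Y4 cells was sequenced in 9 directional libraries read from both ends. The authors deposited raw counts per gene, which are whole numbers that were not normalized. Per the labels and the paper's methods, HISAT2 was used for alignment of trimmed reads to GRCm39 and featureCounts for counting (2.06 in the processing notes, another version in the protocol), while the methods also name RSEM. Strand setting and treatment of reads with several matches were not given in the sources used here.

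Groups came from the sample titles. Counts were kept by filterByExpr (minimum count 10), scaled by TMM (trimmed mean of M values) and fitted in edgeR 4.0.16 (limma 3.58.1, R 4.3.3) by quasi-likelihood, with group as the only term over the 9 libraries and 6 residual degrees of freedom. Benjamini-Hochberg adjustment ran over 13812 genes, and genes were called at an adjusted p under 0.05. The script was tested on simulated data. CPM were scaled likewise, and levels between genes were divided by the deposited gene length. Alternatives included DESeq2 1.42.0, other scalings and filters, a replicate block and leaving out each library. Precision is limited by total counts of 12250628 to 18515456.

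Named were, for each class and direction, up to 3 members called at 48 h with the largest change at a mean of at least 5 CPM, those called at 24 h, the most abundant of each class, and a list with known places in bone. One of the genes so named is not reported here. Slc25a3, Slc25a4, Slc25a17, Slc25a24, Slc25a25, Slc25a28, Slc25a36, Slc25a51, Slc38a10, Slc39a13, Slc41a2, Slc43a1, Slc17a7, Slc52a2, Slc19a2 and Slc15a3 were added after their values were seen. The members, classes and lists were chosen with earlier results of these data known. No protein sequence was printed.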

Additional observations from a re-analysis of the deposited data

Results flagged for a closer look

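In 6 members a call at 24 h went with a called difference between 48 h and 24 h in the direct edgeR comparison (adjusted p under 0.05 over all genes). Both comparisons use the same 24 h libraries, so the second is not independent of the first. A deviation of the 24 h libraries would enter both. The 24 h calls of all of these but Slc27a1 were lost on leaving out single libraries, as given above. The log2 fold change of 48 h against 24 h was 0.65 for Slc25a1 (lower at 24 h, higher at 48 h), 0.78 for Slc27a1 and 0.49 for Slc38a7 (both lower at 24 h and not called at 48 h). It was -0.34 for Slc6a17 and -0.70 for Slc30a1, both higher at 24 h and not called at 48 h. It was -0.23 for Slc5a3, which was lower at both times. This call was lost without 24 h library 1 or 2 or 48 h library 1 or 2 (-0.23 to -0.19, adjusted p of 0.0552 to 0.113). Scaling by library size alone lost it as well (-0.19, adjusted p = 0.0621).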

How the results depend on the processing

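Of 120 log2 fold changes of named members, 96 kept their call under all 16 alternative settings, and none of the 1920 values reversed its direction; 86 lost the call and 3 gained one. Leaving out each library gave 36 to 43 members higher and 24 to 32 lower at 48 h against control, 2 to 9 higher and 2 to 6 lower at 24 h, and 38 to 47 higher and 32 to 39 lower between 48 h and 24 h. With an absolute log2 fold change of at least 1 required as well, 7 members were higher and 1 lower at 48 h, 1 and 0 at 24 h, and 7 and 3 between the times. At an adjusted p under 0.01, 2 were higher and 2 lower at 24 h. Without the filter on low counts 10 were higher at 24 h, and in a fit of the 2 groups compared 3 were lower there. Same-numbered libraries deviated together little (correlations of -0.0493 to 0.0775), so the numbers were not taken to pair the samples, and with a replicate block the counts were 41 and 33 at 48 h, 6 and 5 at 24 h, and 42 and 37 between the times. Other scalings moved the median of all genes by under 0.1 on the log2 scale. The causes were not tested. Depth limits the members with few reads, such as Slc15a3.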
